A study of Mus musculus with 12 samples.

Results

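This account covers 32545 stretches of open chromatin that had been called in each of 4 macrophage populations sorted from mouse brain tumours, out of 117835 regions in the deposited table, or 27.6%. The regions were chosen by peak calls: a region was included when its composite name carried a peak call from lipid-laden microglia (LL-MG), from microglia without lipid load (MG), from lipid-laden monocyte-derived macrophages (LL-MDM) and from monocyte-derived macrophages without lipid load (MDM). These regions made up 76.2% of the 42698 regions with an LL-MG call, 53.3% of the 61019 with an MG call, 64.5% of the 50422 with an LL-MDM call and 30.9% of the 105173 with an MDM call. Since the calls carry the names of the 4 groups compared below, every region was already required to be open in all 4, and its values in each group are a description of that choice. The choice did not use where the regions lie or which bases they hold. It also set no order of the groups, although a call in every group limits how low the counts of any group can be, and so how far the groups can differ.

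The assay was ATAC-seq, in which the Tn5 transposase cuts accessible DNA in nuclei and read counts over a region measure how open it is. All cells came from brain tumours of mice of the genotype Ink4a/ArfKO, PDGFB, a model of glioma in which PDGFB, a growth factor, is forced on in progenitors marked by Nestin that lack Ink4a/Arf, and all were sorted by flow cytometry, so every group shares the tumour, the genotype and the sorting. Each of the groups LL-MG, MG, LL-MDM and MDM had 3 libraries by the column names of the count table. The sample titles number 3 mice, but they name another group than the column for 8 of the 12 libraries; the column names were followed here, and grouping by title left 0 of these regions called between MG and MDM. Libraries are numbered 1 to 3 within a group below. Which of them share a mouse is not settled, so the p-values rest on the variation among libraries, part of which may be technical.

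Open chromatin in a cell comes in broad kinds. Promoters of widely used genes, often rich in CpG and in GC boxes bound by SP factors, are accessible in most cell types, whereas enhancers inside and between genes are opened by lineage factors such as PU.1 and by signal-dependent factors, and differ between related cells. Microglia settle in the brain in the embryo and monocyte-derived macrophages enter tumours from the blood, so both share a macrophage programme on top of which their enhancers differ; lipid-laden macrophages have taken up lipid such as myelin debris.

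The position of the regions was a feature that the calls had not used directly. Of the 30184 regions for which the annotation decides the matter, 8147 (27.0%) held the start of a gene, against 1.90% of the other regions. Regions called in 1, 2, 3 and 4 groups held a gene start in 1.03%, 2.81%, 4.28% and 27.0% of cases. Their median widths were 113, 175, 213 and 388 bp in the same order. Among shared regions, 64.5% held a start in the highest of 4 levels of CPM and 4.74% in the lowest. Width and level bear on the calls, and the shares with a start were not compared at equal width or level. In total 84.1% of the 9691 regions of the table with a gene start were open in all 4 groups, and 9206 genes had such a region at their start. The status of 2361 of the regions is unknown, because promoter windows were at hand for 79.9% of 21631 protein-coding genes. A further 12369 of the regions lay inside a protein-coding gene without holding its start and 9668 lay outside such genes. Where a distance to the nearest start was known, its median was 5052 bp for the shared regions and 12190 bp for the others.

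The bases around these starts differed from those of promoters at large. In the RefSeq windows (GRCm38.p6, 250 bases before to 50 after the start), the 10426 starts inside a shared region had a median GC content of 62.0% and a ratio of observed to expected CpG of 0.804, against 52.7% and 0.384 over all 32851 windows. The SP motif GGGCGG, searched on both strands, was present in 68.8% of the windows in shared regions and in 35.7% of all windows. The ETS motif CCGGAAGT was present in 9.83% against 3.89%, and the TATA motif TATAAA was present in 5.66% against 13.6%. Of all windows, 20755 had their start in no region of the table, so part of this contrast is with promoters not called open. The 1670 starts in regions not called in all 4 groups had a median GC content of 57.3% and a CpG ratio of 0.539. These windows held GGGCGG in 51.0%, CCGGAAGT in 2.34% and TATAAA in 8.86%. Below are 8 of these windows, chosen to show the range: Hdac6 and Ddost were among the most even regions over the groups, Cd81 and Bhlhe41 were higher in MG than in MDM, and H2-Aa, H2-Eb1, Gpr132 and Ms4a7 were lower in MG than in MDM. Each is printed 5′ to 3′ on the strand of its gene, with matches on either strand in capitals to GGGCGG, to the CCAAT box (in 37.4% of all windows), to GGAAGT (the ETS core, also the end of CCGGAAGT and of the longer PU.1 motif GAGGAAGT, in 23.8%) and to TATAAA.
Hdac6 window, chrX:7947840-7948139, minus strand: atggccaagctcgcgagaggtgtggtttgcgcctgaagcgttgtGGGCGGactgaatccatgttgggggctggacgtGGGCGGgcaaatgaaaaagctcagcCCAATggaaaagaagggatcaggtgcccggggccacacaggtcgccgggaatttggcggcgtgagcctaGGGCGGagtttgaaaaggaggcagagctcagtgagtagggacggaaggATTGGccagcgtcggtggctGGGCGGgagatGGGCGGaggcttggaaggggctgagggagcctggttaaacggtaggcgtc
Ddost window, chr4:138304488-138304787, plus strand: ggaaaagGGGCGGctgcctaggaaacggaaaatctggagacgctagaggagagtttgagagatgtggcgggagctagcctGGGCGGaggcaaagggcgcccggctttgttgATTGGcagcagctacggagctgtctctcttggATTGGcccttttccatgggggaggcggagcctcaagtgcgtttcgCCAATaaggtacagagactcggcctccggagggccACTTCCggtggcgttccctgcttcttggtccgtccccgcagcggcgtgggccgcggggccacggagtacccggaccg
Cd81 window, chr7:143052500-143052799, plus strand: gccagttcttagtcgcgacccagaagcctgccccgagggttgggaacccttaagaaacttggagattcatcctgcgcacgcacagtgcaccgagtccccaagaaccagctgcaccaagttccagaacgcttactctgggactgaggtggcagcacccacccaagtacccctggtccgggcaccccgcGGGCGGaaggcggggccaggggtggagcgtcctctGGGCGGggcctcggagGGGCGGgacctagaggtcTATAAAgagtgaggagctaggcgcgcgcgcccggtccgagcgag
Bhlhe41 window, chr6:145865371-145865670, minus strand: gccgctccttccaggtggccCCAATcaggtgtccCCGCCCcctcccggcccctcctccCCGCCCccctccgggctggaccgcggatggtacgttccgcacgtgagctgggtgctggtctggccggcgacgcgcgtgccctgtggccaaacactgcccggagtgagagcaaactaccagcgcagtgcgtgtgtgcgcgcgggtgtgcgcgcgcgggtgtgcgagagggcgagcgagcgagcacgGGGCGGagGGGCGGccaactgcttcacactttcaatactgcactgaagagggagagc
H2-Aa window, chr17:34287774-34288073, minus strand: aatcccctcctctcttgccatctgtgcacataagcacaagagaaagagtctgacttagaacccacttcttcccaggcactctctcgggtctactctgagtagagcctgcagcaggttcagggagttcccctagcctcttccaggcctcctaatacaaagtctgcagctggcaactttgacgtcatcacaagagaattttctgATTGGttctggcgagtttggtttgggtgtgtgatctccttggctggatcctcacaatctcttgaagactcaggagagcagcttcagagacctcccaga
H2-Eb1 window, chr17:34305617-34305916, plus strand: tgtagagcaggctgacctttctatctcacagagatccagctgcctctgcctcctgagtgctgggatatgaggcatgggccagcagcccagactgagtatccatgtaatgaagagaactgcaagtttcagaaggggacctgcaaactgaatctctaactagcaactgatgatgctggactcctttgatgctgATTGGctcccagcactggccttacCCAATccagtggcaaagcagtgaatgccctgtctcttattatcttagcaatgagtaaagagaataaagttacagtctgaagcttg
Gpr132 window, chr12:112860867-112861166, minus strand: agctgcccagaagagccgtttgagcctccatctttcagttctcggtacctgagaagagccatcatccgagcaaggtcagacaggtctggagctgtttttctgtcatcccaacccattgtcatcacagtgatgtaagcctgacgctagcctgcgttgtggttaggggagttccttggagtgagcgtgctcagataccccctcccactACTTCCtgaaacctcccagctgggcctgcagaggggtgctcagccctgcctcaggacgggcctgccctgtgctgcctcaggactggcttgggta
Ms4a7 window, chr19:11336097-11336396, minus strand: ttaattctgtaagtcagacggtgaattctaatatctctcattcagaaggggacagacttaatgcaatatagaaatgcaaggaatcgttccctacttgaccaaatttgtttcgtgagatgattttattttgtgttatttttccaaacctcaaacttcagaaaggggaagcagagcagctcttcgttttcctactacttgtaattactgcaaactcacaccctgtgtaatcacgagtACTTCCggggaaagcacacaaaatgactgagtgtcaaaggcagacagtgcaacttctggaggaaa

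The first 4 windows held 20, 24, 23 and 32 CpG sites with 5, 2, 3 and 4 matches to GGGCGG, and the last 4 held 3, 0, 7 and 6 CpG sites with no match to it. The windows of H2-Aa and H2-Eb1 held the CCAAT box once and in 2 places. The same contrast ran through the set. The 86 windows in shared regions at least 2-fold lower in MG than in MDM had a median GC content of 51.7% and held GGGCGG in 30.2% and GAGGAAGT in 14.0%, whereas the 415 windows in regions at least 2-fold higher in MG had a median GC content of 62.0% and held these motifs in 67.2% and 2.41%. A match is a run of letters and was not tested as a binding site.

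The 12 libraries held 1162969 to 18938222 counts over all regions, the fewest in LL-MDM 1, and the shared regions took 76.2% to 77.3% of them in LL-MG libraries, 74.5% to 76.9% in MG, 75.7% to 76.6% in LL-MDM and 71.4% to 74.4% in MDM, although they cover 51.6% of the summed region length. The choice bears on this share, which is lowest in MDM, the group with the most calls outside the shared regions. From the next paragraph on, levels are given as CPM, counts scaled to a common library total after TMM scaling. The medians in the rest of this paragraph are CPM of the library total over all regions of the table, without TMM scaling. Regions just outside the choice were thin: the 672 that lacked only the MDM call had a median of 0.811 CPM in MDM, the 3319 that lacked only LL-MDM had 3.25 CPM there, the 985 that lacked only MG had 2.59 CPM there, and the 7469 that lacked only LL-MG had 3.27 CPM there. The shared regions had medians of 15.6, 14.1, 14.8 and 14.0 CPM in LL-MG, MG, LL-MDM and MDM. In such pooled nuclei, a region open in fewer cells and a region less open in each cell cannot be told apart.

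The group labels were read against marker lists. Of 17 core macrophage genes, 16 had shared regions, and their summed level was 1799 to 1977 CPM in LL-MG, 1910 to 1960 in MG, 1652 to 1784 in LL-MDM and 1424 to 1681 in MDM. A region inside Csf1r, the receptor that macrophages need to survive, had 74.5, 48.0 and 55.4 CPM in MG and 32.8, 35.7 and 35.7 CPM in MDM. Genes of oligodendrocytes, astrocytes, neurons and of tumour or progenitor cells had shared regions for 3, 4, 3 and 2 of 8 genes each, and Sox10, Aqp4, Snap25, Olig2 and Pdgfra had none. The 4 regions of the tumour and progenitor list summed to 53.6 to 65.0 CPM in LL-MG, 37.6 to 44.9 in MG, 20.4 to 23.8 in LL-MDM and 13 to 18 in MDM, in the same order as the graded regions below. The 13 astrocyte regions summed to 135 to 146 CPM in LL-MG, 90.4 to 109.7 in MG, 111 to 123 in LL-MDM and 92.3 to 101 in MDM, so both lipid-laden groups were above their counterparts without overlap. The 7 neuron regions summed to 48.9 to 53.3 CPM in LL-MG, 38.9 to 45.6 in MG, 40.3 to 45.2 in LL-MDM and 37.1 to 41.0 in MDM, and the 9 oligodendrocyte regions to 172 to 175, 150 to 166, 163 to 181 and 185 to 202 CPM in the same order. The part of these lists in the results was not tested.

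The shared regions ran from nearly even to strongly graded over the groups. The range between the highest and the lowest of the 4 group means of log2 CPM had a median of 0.65; 35.8% of the 32514 shared regions tested stayed under 0.5, 27.6% exceeded 1 and 1435 exceeded 2. A test for any difference among the 4 groups (edgeR quasi-likelihood test with Benjamini-Hochberg adjustment over 77737 regions, adjusted p under 0.05) called 19318 of them (59.4%), against a background of 63.1% of all tested regions, and left 13196 (40.6%) without a call. The other tested regions had a median range of 1.29, a gap that the choice itself makes, since they lack a call in at least 1 group. Regions at gene starts were the evener kind, with a median range of 0.42 and 62.4% under 0.5, against a median of 0.79 and 24.8% under 0.5 for regions without a start.

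**Figure D1:**
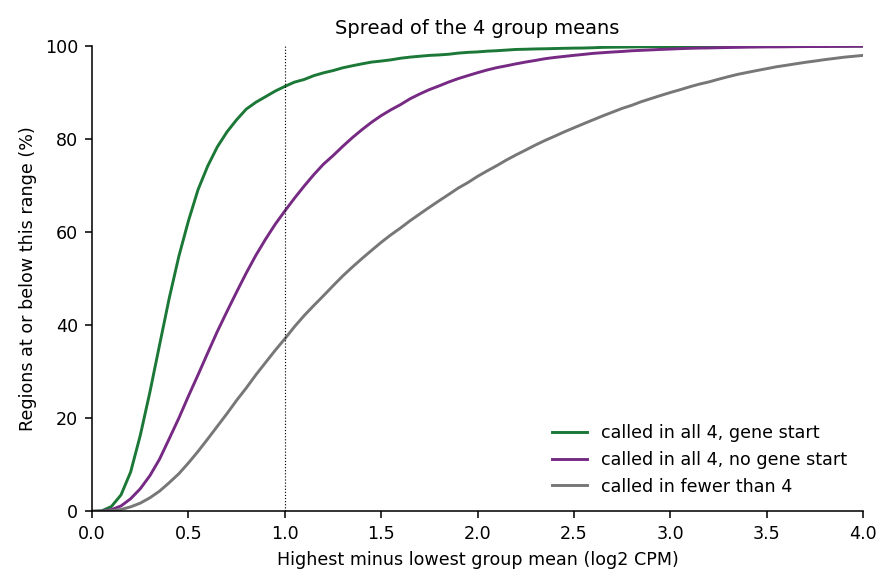
Distribution of the range of the 4 group means (log2 CPM) for shared regions with a gene start, shared regions without a gene start and the regions not called in all 4 groups. The median range was 0.42 for shared regions with a start, 0.79 for those without and 1.29 for the other regions, which lack a call in at least 1 group by the choice.

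Among the regions in the upper of 4 levels of openness, the 6 evenest all held a gene start: Hdac6 (a tubulin deacetylase), Chaf1b (a subunit of chromatin assembly factor 1), Zfp318 (a zinc finger protein), Ogfr (the opioid growth factor receptor), Ddost (a subunit of the oligosaccharyltransferase) and Ifngr1 (a chain of the interferon gamma receptor). The Hdac6 region, chrX:7947688-7948428, had 44.8, 46.1 and 50.4 CPM in LL-MG, 49.3, 44.1 and 47.1 in MG, 48.7, 44.0 and 46.6 in LL-MDM, and 43.7, 46.2 and 48.5 in MDM. The Ddost region, chr4:138304481-138304932, had 64.7, 58.3 and 55.2 CPM in LL-MG, 58.9, 63.5 and 56.8 in MG, 70.9, 58.1 and 53.8 in LL-MDM, and 57.0, 56.6 and 62.2 in MDM. In both, the libraries of all 4 groups overlapped, and they were picked for being even, so their evenness is a description.

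Differences of at least 2-fold were more frequent far from gene starts than near them. A distance was known for 24460 of the 32545 shared regions. Left out were regions over 50 kb from a protein-coding gene and regions whose gene had no promoter window. The farthest bin thus holds regions in or within 50 kb of a gene. Under 250 bp from a start, 5.92% of the regions with a distance differed at least 2-fold between MG and MDM with a call, and beyond 50 kb 27.8% did. The same bins gave 2.26% and 16.4% between LL-MDM and MDM, 2.39% and 11.5% between LL-MG and LL-MDM, and 0.702% and 4.27% between LL-MG and MG. The median range over the 4 groups was 0.43 in the nearest bin and 0.91 in the farthest. Regions near starts were also the more open ones per length, with a median of 54.3 CPM per kb in the nearest bin and 29.6 in the farthest, and the split depended on the level. Between MG and MDM, regions with a start differed at least 2-fold in 1.17% of 4696 in the highest of 4 levels of CPM, 6.31% of 2140 in the next, 16.9% of 943 in the next and 28% of 368 in the lowest. Regions without a start did so in 9.95% of 2582, 19.8% of 5299, 25.8% of 6730 and 23.4% of 7395 in the same order. Between MG and MDM, starts were thus the evener kind in the 3 upper levels and not in the lowest. In the lowest level, regions with and without a start gave 13.6% and 16.3% between LL-MDM and MDM and 1.63% and 3.58% between LL-MG and MG. Between LL-MG and LL-MDM they gave 12.5% and 8.95%.

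**Figure D2:**
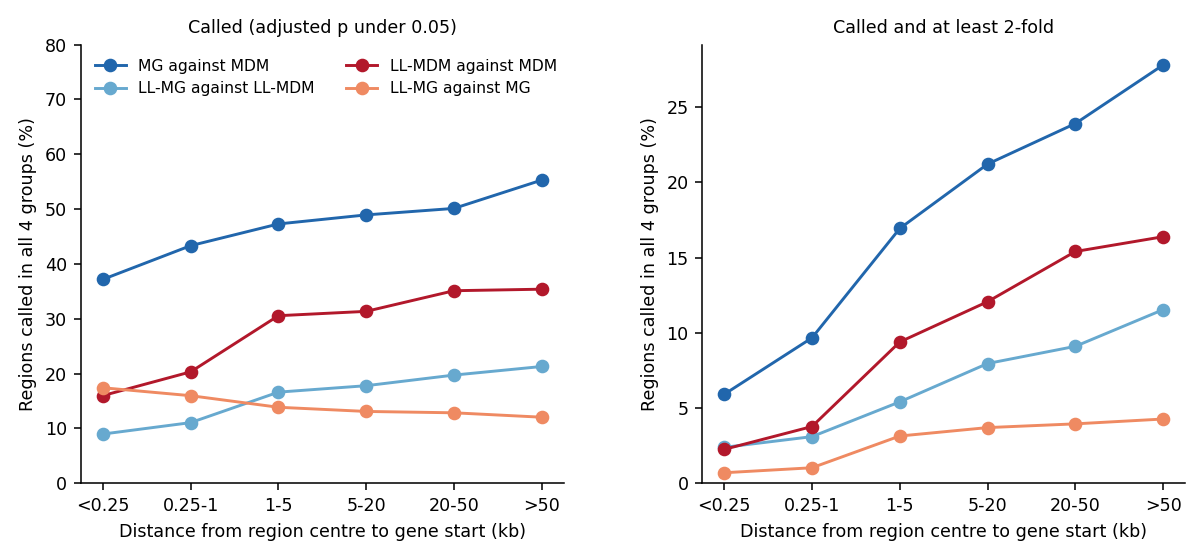
Percentage of shared regions called in each of 4 comparisons (left panel), and called with at least a 2-fold difference (right panel), in 6 bins of distance from the region's centre to the nearest gene start (kb). Regions without a known distance, among them those over 50 kb from a protein-coding gene, are left out. At least 2-fold, the share was higher beyond 50 kb than under 250 bp in all 4 comparisons, with 27.8% beyond 50 kb for MG against MDM; for all calls the share of LL-MG against MG was lower in the farthest bin than in the nearest.

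Across libraries the shared regions laid the groups out in a line. The first principal component (48.6% of the variance) put the LL-MG libraries at 58.7 to 64.0, MG at 24.6 to 51.3, LL-MDM at -24.7 to -6.36 and MDM at -92.9 to -80.8. The second (15.9%) set MG 2 and MG 3 apart, at 84.5 and 45.6, from MG 1 at 2.47, and the next (12.0%) set LL-MDM 1 apart at 73.7. As a description, the median correlation of log2 CPM between libraries over shared regions was 0.803 for LL-MG with MDM. Within groups it was 0.948 among LL-MG, 0.935 among MG, 0.936 among LL-MDM and 0.984 among MDM libraries, the last being the deepest group. For LL-MG with MDM it was 0.881 at gene starts and 0.692 away from them. Over regions not called in all 4 groups, where the choice itself sets groups apart, it was 0.0098.

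**Figure D3:**
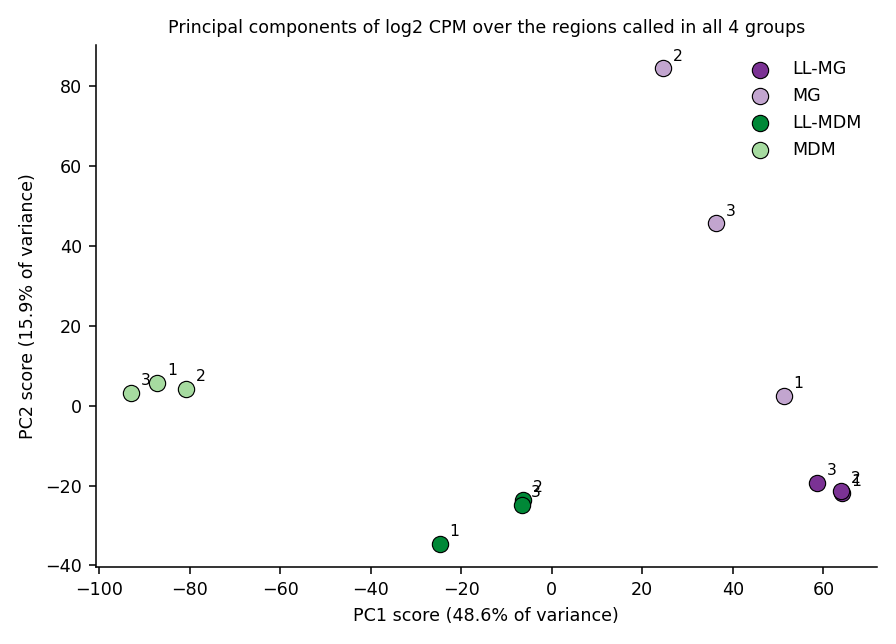
Principal components of log2 CPM over the tested shared regions, 1 point per library, coloured by group (LL-MG, MG, LL-MDM, MDM). The groups follow each other along the first component, and MG 2 and MG 3 stand apart on the second at 84.5 and 45.6.

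The order of means that matches this line, LL-MG above MG above LL-MDM above MDM, was the most common of the 24 possible orders, with 4264 shared regions (3538 called), and the reverse order held 1841 (1299 called). These are 13.1% and 5.66% of the shared regions, beside 12.9% and 10.7% of all tested regions, so the first order was about as frequent as elsewhere and the reverse less frequent. MDM was the lowest group in 12657 regions and the highest in 7580, LL-MG the lowest in 8198 and the highest in 9484. The choice bears on these counts and on the grades that follow, since the limit it set was lower in MDM than in the other groups. A strict grade was rare, with steps of at least 0.5 on the log2 scale between neighbouring means and no overlap between neighbouring groups. Of 32514 shared regions, 98 stepped up from MDM through LL-MDM and MG to LL-MG and 9 stepped down. Of all 77737 tested regions, 469 (0.603%) and 236 (0.304%) did, so both grades were less frequent among the shared regions. Only 9 of the 98 and 1 of the 9 held a gene start.

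Among the regions that stepped up, the steepest were in or at Manba (lysosomal beta-mannosidase), Nfia (a nuclear factor I transcription factor), Nup214 (a nuclear pore protein), Pxk (a PX-domain kinase-like protein) and the uncharacterised 1700003F12Rik. The Manba region, chr3:135516870-135517332, lies inside the gene and had 40.3, 31.0 and 30.5 CPM in LL-MG, 28.9, 19.7 and 22.9 in MG, 12.4, 10.4 and 10.6 in LL-MDM, and 0.950, 0.924 and 1.37 in MDM. The Pxk region, chr14:8111585-8112287, also inside its gene, had 64.7, 67.2 and 68.2 CPM in LL-MG, 50.04, 28.8 and 38 in MG, 12.4, 13.4 and 15.1 in LL-MDM, and 3.43, 4.94 and 4.10 in MDM. No library of a group reached into the next group in either region. Between LL-MG and MDM the difference was 5.03 ± 0.24 on the log2 scale (SE) for Manba and 3.98 ± 0.18 for Pxk, 4.65 for Nfia, 4.6 for Nup214 and 3.76 for 1700003F12Rik, whose region holds its start.

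The regions that stepped down lay in or near Cytip (a cytohesin-binding protein of blood cells), Dock5 (an activator of Rac), Phlpp1 (a phosphatase of Akt, 8938 bp away), Gpr132 (a G protein-coupled receptor of leukocytes) and Pcbp1 (an RNA-binding protein, 21680 bp away). The Cytip region, chr2:58183717-58184082, had 3.62, 3.76 and 4.35 CPM in LL-MG, 9.27, 9.26 and 11.2 in MG, 28.4, 23.5 and 24.7 in LL-MDM, and 48.9, 39.2 and 44.4 in MDM. The region at the Gpr132 start, chr12:112860813-112861302, whose window is printed above, had 14.9, 13.2 and 13.8 CPM in LL-MG, 15.6, 27.6 and 19.0 in MG, 42.5, 45.8 and 43.5 in LL-MDM, and 72.7, 66.5 and 74.2 in MDM. The groups did not overlap in either. The log2 difference between LL-MG and MDM was -3.48 ± 0.21 for Cytip, -2.34 ± 0.17 for Gpr132, -3.37 for Phlpp1, -3.43 for Dock5 and -2.03 for Pcbp1. These regions were picked for their grade, so the values describe it.

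**Figure D4:**
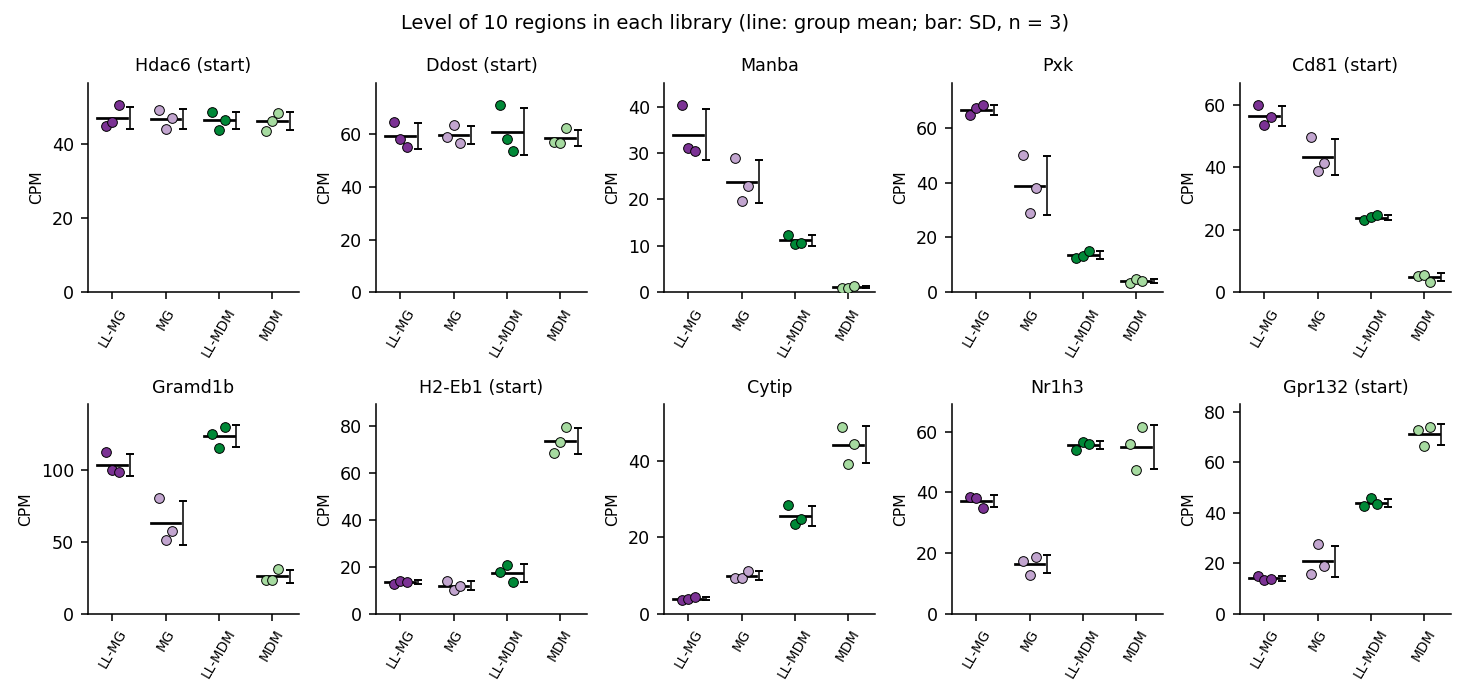
CPM per library in 10 shared regions, grouped as LL-MG, MG, LL-MDM and MDM; each point is a library, the line the mean and the bar the SD of 3 libraries. Hdac6 and Ddost are level, Manba and Pxk step down from LL-MG to MDM, and Cytip and Gpr132 step up over the same order.

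Without lipid load, MG differed from MDM in 15021 shared regions (46.2%; 9716 higher and 5305 lower in MG), against a background of 51.7% of all tested regions. The median difference was 0.16 over the shared regions and 0.07 over all. Among regions not called in all 4 groups 11088 were higher and 14054 lower in MG, and the choice bears on the direction in both sets. At least 2-fold changes made up 17% of the shared regions, against a background of 32.8%. Scaling on the shared regions alone gave 7187 higher and 6771 lower. Regions with a gene start went mostly one way, 2623 higher and 400 lower of 8147, and those without were more balanced, 6323 higher and 4678 lower of 22006; without MG 2 and MG 3 the counts at starts were 1092 higher and 444 lower.

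The clearest regions higher in MG lay near Chsy1 (chondroitin synthase, 5157 bp away) and Cldn5 (a tight junction protein of endothelium, 42975 bp away), at the start of Cd81 and in Manba. The Chsy1 region, chr7:66178955-66179489, had 42.6, 57.6 and 43.2 CPM in MG and 4.97, 3.26 and 3.59 CPM in MDM. The Cd81 start, chr7:143052502-143053172, which belongs to a tetraspanin of the cell surface, had 49.7, 38.8 and 41.2 CPM in MG and 5.33, 5.60 and 3.25 CPM in MDM. Neither pair of groups overlapped, and the log2 differences were 3.60 ± 0.18 (edgeR adjusted p = 1.90e-16) and 3.09 ± 0.16 (edgeR adjusted p = 4.92e-16). Those of Manba and Cldn5 were 4.50 and 3.07.

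On the lower side stood Tmem131 (22496 bp away), Lonrf2 (15456 bp away), Bhlhe40 (a repressor of the basic helix-loop-helix family, 21202 bp away) and the starts of H2-Aa and H2-Eb1, chains of the MHC class II molecules that present peptides to CD4+ T cells. The H2-Eb1 start, chr17:34305648-34306119, had 13.7, 10.1 and 12.0 CPM in MG and 68.7, 73.2 and 79.8 CPM in MDM. The H2-Aa start, chr17:34287527-34288105, had 11.1, 9.43 and 13.2 CPM in MG and 68.9, 70.6 and 80.8 CPM in MDM. The MG libraries were all far under the MDM libraries in both, with log2 differences of -2.66 ± 0.16 (edgeR adjusted p = 4.94e-15) and -2.72 ± 0.16 (edgeR adjusted p = 4.68e-15). For Tmem131, Lonrf2 and Bhlhe40 the differences were -3.32, -3.10 and -2.68.

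Shared regions at lineage genes followed the labels, read against the 26.8% higher and 24.9% lower of all tested regions. Of 57 regions at 16 of 19 microglia identity genes, 36 were higher and 3 lower in MG than in MDM, with a median log2 difference of 0.64. At the start of Bhlhe41, chr6:145865368-145865735, MG had 39.3, 23.2 and 30.2 CPM and MDM 3.07, 3.15 and 3.42 CPM. Tmem119, a surface protein of microglia, rose by 1.99 on the log2 scale and Olfml3, a secreted protein of microglia, by 2.27. Of 43 regions at 14 of 18 monocyte-derived identity genes, 3 were higher and 19 lower, with a median of -0.29. The start of Ms4a7, a membrane protein of macrophages that came from blood, chr19:11336004-11336342, had 2.97, 4.80 and 4.15 CPM in MG and 16.5, 16.6 and 18.1 CPM in MDM, and Itga4, an integrin of monocytes, fell by 1.23. Sall1, Sall3, Gpr34 and Ccr2 had no region open in all 4 groups.

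Other lists of genes leaned to either side. Of the shared regions tested 29.9% were higher and 16.3% lower in MG, and of all tested regions 26.8% and 24.9%. Of 51 regions at 15 antigen presentation genes, 4 were higher and 27 lower in MG (median -0.50). Of 44 regions at immunosuppression genes, 6 were higher and 16 lower (median -0.19), among them 1 near Il4ra, a chain of the interleukin-4 receptor, at -2.07. Of 36 regions at AP-1 and immediate early genes, 20 were higher and 1 lower (median 0.39), of 56 at lysosome and autophagy genes 24 and 5 (0.28), of 38 at PPAR and fatty acid oxidation genes 21 and 3 (0.51), and of 40 at NF-kB genes 15 and 4 (0.23). Housekeeping, ribosomal protein and chromatin architecture genes had 10 of 27, 4 of 26 and 5 of 32 regions higher in MG and 1, 1 and 0 lower; scaling on the shared regions alone turned the ribosomal protein counts to 2 higher and 3 lower. Without MG 2 and MG 3 AP-1 regions were 12 higher and 0 lower and housekeeping regions 2 and 2. The region at the start of Clec7a, the beta-glucan receptor, was at -2.15. It ran against its list of lipid-associated macrophage genes, where 18 of 55 regions were higher and 5 lower (median 0.21). A region at Mbp, the myelin basic protein gene, was at -0.94. Its list of oligodendrocyte genes had 2 of 9 regions higher and 3 lower, or 2 and 1 without MG 2 and MG 3.

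Between the lipid-laden populations fewer regions differed. LL-MG differed from LL-MDM in 5139 shared regions (15.8%; 2897 higher, 2242 lower), against a background of 21.5%, with median differences of 0.00 over the shared regions and -0.03 over all. At least 2-fold changes made up 6.41%, against a background of 16.5%. Regions with a start gave 416 higher and 318 lower of 8147, although their median difference was -0.07 and without MG 2 and MG 3 582 were higher and 672 lower; those without a start gave 2266 higher and 1790 lower of 22006. Leaving out single libraries moved the count between 3138, without LL-MDM 2, and 6742, without MG 2; it fell by over 1.5 times also without LL-MDM 3 (3320), LL-MG 1 (3306) or LL-MG 2 (3330).

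The strongest regions higher in LL-MG lay in Pxk, Cdc42bpb (a kinase that acts with Cdc42), Bik (a promoter of cell death in the BCL2 family) and near Gm38821. The Cdc42bpb region, chr12:111326076-111326447, had 43.4, 43.7 and 29.0 CPM in LL-MG and 7.09, 6.68 and 5.14 CPM in LL-MDM, a log2 difference of 2.61 ± 0.24 (edgeR adjusted p = 1.60e-09). The groups were far apart. Bik had 28, 36.2 and 29.0 CPM in LL-MG and 2.66, 6.82 and 5.82 CPM in LL-MDM, the first of which rests on a few reads, and the log2 differences of Bik, Gm38821 and Pxk were 2.39, 2.57 and 2.28.

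Lower in LL-MG were regions of Cytip and Myo16 (an unconventional myosin) and regions near Lonrf2, Intu (a gene of cilium assembly, 30509 bp away) and Runx3 (39630 bp away), a transcription factor of leukocytes. The Runx3 region, chr4:135079881-135081015, had 26.7, 26.8 and 31.2 CPM in LL-MG and 87.7, 90.5 and 90.4 CPM in LL-MDM, a log2 difference of -1.66 ± 0.14 (edgeR adjusted p = 7.33e-10), with no overlap. The others were at -2.65 (Cytip), -2.46 (Intu), -2.36 (Lonrf2) and -2.27 (Myo16). The lineage lists kept their side: 25 of 57 microglia identity regions were higher and 3 lower, and 21 of 43 monocyte-derived regions were lower and 1 higher, beside a background of 10.3% higher and 11.2% lower. Ms4a7 was at -1.29. Of the 51 antigen presentation regions 5 were lower and 1 higher, and of 35 matrix and angiogenesis regions 10 were lower and 2 higher.

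Among the shared regions, lipid load in monocyte-derived macrophages went with more gains than losses, a direction on which the choice bears. LL-MDM differed from MDM in 8917 shared regions (27.4%; 6243 higher, 2674 lower), against a background of 29.5%, with a median of 0.08 over the shared regions and 0.01 over all. At least 2-fold changes made up 9.42% (2554 higher, 509 lower), against a background of 17.8% (9.17% higher, 8.63% lower); among regions not called in all 4 groups the at least 2-fold calls were 4577 higher and 6201 lower. At starts 943 were higher and 360 lower of 8147, and away from starts 4954 and 2150 of 22006. Scaling on the shared regions alone gave 4986 higher and 4009 lower in all, and 610 higher and 760 lower at starts, which turns the direction there. The count was 4925 without LL-MDM 2 and 5845 without LL-MDM 3.

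The regions that rose most clearly in LL-MDM lay in Zdhhc14 (a palmitoyltransferase), Gramd1b (a protein that moves cholesterol from the plasma membrane to the endoplasmic reticulum) and Lhfpl2, and near Scn11a (a sodium channel, 16346 bp away) and Gas6 (a ligand of the TAM receptors for apoptotic cells, 9413 bp away). The Gramd1b region, chr9:40321003-40321926, had 125, 115 and 129.8 CPM in LL-MDM and 23.4, 23.0 and 31.1 CPM in MDM, a log2 difference of 2.27 ± 0.14 (edgeR adjusted p = 3.11e-12). In LL-MG it had 112, 99.7 and 98.3 CPM and in MG 80.1, 50.9 and 57.1 CPM, so both lipid-laden groups were above both others. The Gas6 region, chr8:13503948-13504502, had 23.9, 25.6 and 22.9 CPM in LL-MDM and 3.43, 5.16 and 3.08 CPM in MDM. Lhfpl2, Scn11a, Gas6 and Zdhhc14 were higher by 2.71, 2.59, 2.57 and 2.32 on the log2 scale.

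Among the clearest regions that fell were those of MHC class II. H2-Eb1 had 17.7, 20.7 and 13.4 CPM in LL-MDM and 68.7, 73.2 and 79.8 CPM in MDM, a log2 difference of -2.05 ± 0.15 (edgeR adjusted p = 5.07e-11). H2-Aa was at -1.95, Cd74, the invariant chain that escorts class II molecules, at -1.68, a region 4940 bp from H2-Ab1 at -1.22, Tmem131 at -2.16 and Mast4, a kinase, at -1.79. The LL-MDM libraries lay under the MDM libraries in each of these. Of the 51 antigen presentation regions, 21 were lower and 2 higher, against 14.1% lower and 15.4% higher of all tested regions, with a median of -0.39. Dendritic cell genes moved with them: 7 of 8 had shared regions, with Cd209a at none, and of these 21 regions 6 were lower and 0 higher (median -0.21), and their summed CPM lay between 373 and 387 in the LL-MDM libraries, against 401 to 434 in those of MDM. Their part in the result was not tested.

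Lists of lipid handling and of other macrophage functions moved the other way. Of 65 regions at 13 of 14 cholesterol efflux and LXR genes, 24 were higher and 3 lower in LL-MDM (median 0.29). Of 55 at lipid-associated macrophage genes, 23 were higher and 2 lower (0.37), of 38 at PPAR and fatty acid oxidation genes 17 and 1 (0.35), of 56 at lysosome and autophagy genes 17 and 0 (0.22), and of 35 at matrix and angiogenesis genes 13 and 0 (0.23). Core macrophage genes gave a like count, 20 higher and 1 lower of 58 regions (0.20), so the gain was not shown to be particular to lipid handling. Abcg1, a cholesterol exporter, had 17.7, 15.9 and 14.7 CPM in LL-MDM and 6.28, 4.51 and 3.76 CPM in MDM in a region inside the gene, chr17:31075487-31075775. Abca1, its partner exporter, was higher by 1.14, Rxra, the common partner of nuclear receptors, by 2.35, and Cd63, a tetraspanin of lysosomes, by 1.16. Of 26 regions at interferon genes 5 were higher and 3 lower, or 4 and 6 under scaling on the shared regions.

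Of 57 microglia identity regions 15 were higher and 3 lower in LL-MDM than in MDM (median 0.23), with 13 and 4 under scaling on the shared regions. Of the shared regions tested 19.2% were higher and 8.22% lower, and of all tested regions 15.4% and 14.1%. Core macrophage regions gave 20 higher and 1 lower of 58, so the gain was not shown to be particular to microglia identity. Bhlhe41 had 16.8, 21.7 and 17.8 CPM in LL-MDM and 3.07, 3.15 and 3.42 CPM in MDM, a difference of 2.61 ± 0.22 (edgeR adjusted p = 4.44e-10). Tmem119 and Olfml3 were higher by 1.74 and 2.17. Monocyte-derived identity regions gave 10 higher and 6 lower (median 0.15), and 7 and 7 under that scaling. LL-MG had 33, 43.3 and 26.1 CPM and MG 39.3, 23.2 and 30.2 CPM at Bhlhe41, above LL-MDM in each library.

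The comparison of LL-MG with MG gave the fewest calls of the 4 pairs that differ in lineage or lipid load alone, and its count depended on which libraries were used. LL-MG differed from MG in 4761 shared regions (14.6%; 1956 higher, 2805 lower), against a background of 12.2%, and in 2.70% at least 2-fold, against a background of 6.44%. The median was 0.02 over the shared regions and 0.00 over all, and the median size of the difference, whatever its sign, was 0.31, beside 0.29 between LL-MDM and MDM and 0.26 between LL-MG and LL-MDM. Without MG 2 and MG 3, which leaves a single MG library, 10 shared regions were called (2698 at an unadjusted p under 0.05), without MG 2 alone 1342, without MG 3 alone 3133, and without MG 1 10340. Leaving out an LL-MG library gave 1617, 1644 and 1831. Scaling by total counts gave 3019 higher and 2151 lower, with the median of all tested regions shifted to 0.11, and a level-dependent loess scaling gave 2386 and 1927.

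The direction split by position. At gene starts 104 were higher and 1366 lower in LL-MG of 8147, and away from starts 1767 were higher and 1136 lower of 22006, with median differences of -0.21 and 0.16. With loess scaling the starts gave 304 and 776. The share of counts in shared regions that fell on gene starts was 48.1%, 47.0% and 48.2% in LL-MG and 49.9%, 54.4% and 52.1% in MG, highest in MG 2 and MG 3, beside 50.6%, 48.5% and 49.9% in LL-MDM and 49.3%, 49.6% and 50.3% in MDM. An exact two-sided permutation test of LL-MG against MG gave p = 0.1, the smallest that 3 against 3 can give. Without those 2 MG libraries, 1 region with a start and 9 without were called.

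**Figure D5:**
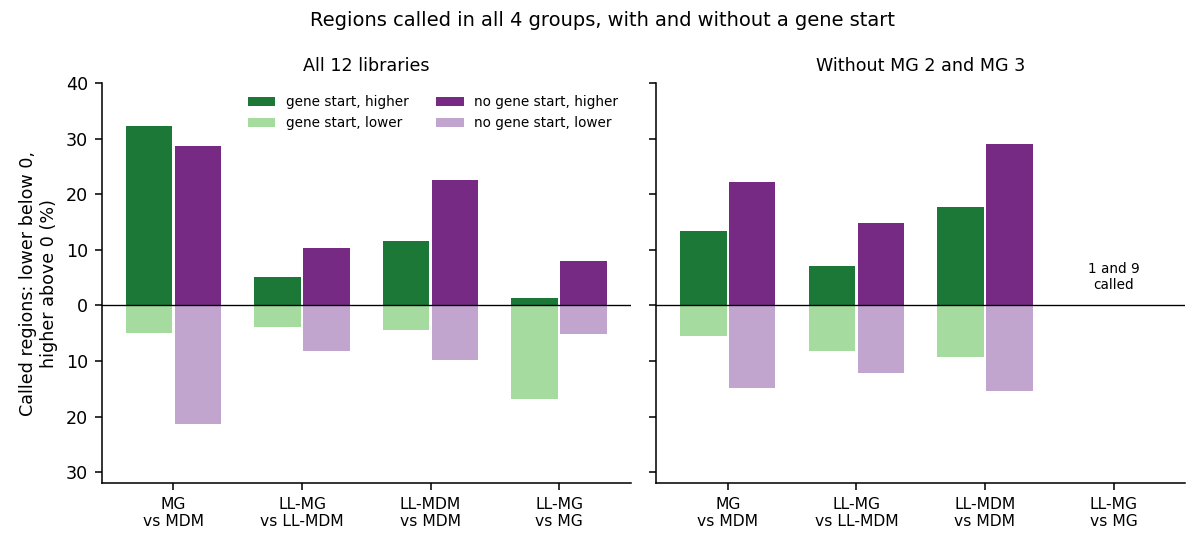
Shared regions called higher and lower in each comparison, with and without a gene start, with all 12 libraries and without MG 2 and MG 3. For LL-MG against MG, regions with a start gave 104 higher and 1366 lower with all libraries; without those MG libraries 1 region with a start and 9 without were called.

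Of the 10 clearest regions, Stk40 (a kinase-like protein), Nr1h3 (LXR alpha, the oxysterol receptor) and Ifitm10 kept their call without MG 2 and MG 3, at 1.61 (edgeR adjusted p = 0.0136), 1.08 (0.0198) and 1.1 (0.0449) on the log2 scale. The Stk40 region, chr4:126137763-126138141, had 22.2, 17.9 and 21.0 CPM in LL-MG and 6.67, 5.49 and 4.39 CPM in MG. The Nr1h3 region, chr2:91196722-91197250, had 38.5, 38.1 and 34.8 CPM in LL-MG and 17.4, 12.9 and 18.8 CPM in MG, beside 54.1, 56.6 and 56.2 CPM in LL-MDM and 55.9, 47.3 and 61.7 CPM in MDM. The LL-MG and MG libraries did not overlap in either, with differences of 1.91 ± 0.24 (edgeR adjusted p = 0.000169) and 1.21 ± 0.17 (edgeR adjusted p = 0.000441). Ifitm10 was at 1.35 with all libraries.

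Efna1 (an ephrin ligand, 7536 bp away) and Gpr4 (a proton-sensing receptor) were higher by 1.39 and 1.44, and Neurl3 (a ubiquitin ligase), Clptm1, Serinc3, Btbd9 and Themis2 (a signalling protein of B cells and macrophages) were lower, at -1.41, -1.04, -1.16, -1.04 and -1.44. Without MG 2 and MG 3 all 7 kept their direction, at 0.83 for Efna1, 1.02 for Gpr4, -1.04 for Neurl3, -0.68 for Clptm1, -0.82 for Serinc3, -0.67 for Btbd9 and -0.87 for Themis2, and lost the call, with an edgeR adjusted p of 0.0673 for Neurl3 and above 0.1 for the other 6. Themis2 had 10.9, 12.2 and 9.07 CPM in LL-MG and 19.3, 38.2 and 26.8 CPM in MG. MG 1 was the nearest to LL-MG there, as it was for Clptm1, with 34.8, 38.1 and 30.1 CPM in LL-MG and 54.5, 78.6 and 75.4 CPM in MG.

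Regions of widely used genes were lower where they were called. Of 27 housekeeping regions 10 were lower and 0 higher in LL-MG, of 26 ribosomal protein regions 10 and 0, and of 32 chromatin architecture regions 7 and 0, beside 8.01% lower and 4.21% higher of all tested regions; without MG 2 and MG 3 0 of each were called, as in the antigen presentation, PPAR and microglia identity lists, which had 4, 6 and 2 regions higher and 1, 2 and 0 lower with all libraries. The region at Actb, the beta-actin gene, had 158, 148 and 155 CPM in LL-MG and 178, 245 and 215 CPM in MG, at -0.48, and the ribosomal protein genes Rpl4 and Rpl3 were at -0.87 and -0.58. Without MG 2 and MG 3 these differences were -0.22 for Actb, -0.92 for Rpl4 and -0.43 for Rpl3, with no call. Lipid-associated macrophage regions gave 8 higher and 2 lower of 55, and 0 and 0 without those libraries, and Abcg1 was at 0.77 (edgeR adjusted p = 0.027), and at 0.18 (edgeR adjusted p = 0.906) without them.

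The effect of lipid load differed between the lineages in 3637 shared regions (11.2%; 1354 with a more positive and 2283 with a more negative change in microglia than in monocyte-derived cells), against a background of 10.9%. The median of all tested regions was -0.13 on the log2 scale, so changes are best read relative to it, and scaling on the shared regions gave 1875 and 1447; the count was 2268 without MG 2 and MG 3. H2-Eb1 (2.25 ± 0.26), Cd74 (1.75 ± 0.20) and Vav2, a guanine nucleotide exchange factor (2.43 ± 0.28), led one side: H2-Eb1 fell with lipid load in MDM, while LL-MG had 12.7, 14.1 and 13.4 CPM and MG 13.7, 10.1 and 12.0 CPM, which overlap. Of the 51 antigen presentation regions 16 stood on that side and 0 on the other, beside 4.56% and 6.33% of all tested regions, and of the 21 dendritic cell regions 4 and 0.

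Manba (-2.86 ± 0.33), Pde4d, a phosphodiesterase of cyclic AMP (-3.55 ± 0.43), and the start of Dmxl2, a regulator of the vacuolar proton pump (-1.66 ± 0.19), led the other. The Pde4d region, chr13:109632456-109632763, had 3.62, 3.76 and 3.99 CPM in LL-MG and 5.93, 12.5 and 9.27 CPM in MG, against 15.1, 9.88 and 8.90 CPM in LL-MDM and 2.70, 1.85 and 2.22 CPM in MDM. Lipid load thus stood with a lower level in microglia and a higher level in monocyte-derived cells there, with no overlap in either pair. The other 2 comparisons across both lineage and lipid load gave 14590 shared regions called between LL-MG and MDM (44.9%, against a background of 50.1%), with 8982 higher and 5608 lower in LL-MG, beside 24.1% and 26.0% of all tested regions. Between LL-MDM and MG 7857 were called (24.2%, against a background of 26.9%), with 3791 higher and 4066 lower in LL-MDM, beside 14.0% and 12.9%. Both share their libraries with the comparisons above.

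Some genes held many shared regions, named here after their values were seen. Lpp, Zmiz1, Bach2 and Etv6 had 29, 27, 26 and 24, and their regions went both ways between MG and MDM, with 5 higher and 10 lower for Lpp. Ldlrad4 had 22, of which 17 were higher and 0 lower in MG. Hivep3 had 20, of which 17 were higher and 0 lower in LL-MDM than in MDM, beside 15.4% and 14.1% of all tested regions. In LL-MG against MG 11 of the Hivep3 regions were higher and 0 lower, beside 4.21% and 8.01% of all tested regions. The number of calls in LL-MG against MG depended on which libraries were used, and these Hivep3 counts come from the main model with all libraries. In all, 1036 genes had both a higher and a lower shared region in MG against MDM, which is 17.3% of the 5984 genes with a higher and 39.2% of the 2643 genes with a lower region.

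The most open regions per length included 5 narrow ones of 133 to 192 bp, in Sumo3 and near H2az2, Gtpbp4, Nbdy and Chp1. Sumo3 had 488, 444 and 367 CPM in LL-MG, 354, 227 and 268 CPM in MG, 983, 146 and 276 CPM in LL-MDM, and 80.9, 61.5 and 72.8 CPM in MDM. LL-MDM 1, whose total was the smallest, was far above the others of its group there, as it was for H2az2, Nbdy and Chp1. It was also at least 3-fold below both others of its group in 541 shared regions.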

How the data were processed

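ATAC-seq was analysed from the whole-number read counts per region that the authors deposited, 1 table over 117835 regions with 12 columns, 1 per library, with no normalisation. Per the labels' protocols, nuclei of sorted cells were cut with an in-house Tn5 transposase, amplified in 2 rounds of 9 PCR cycles and selected for fragments of 150 to 700 bp. The build was mm10 and the tools were deepTools 3.5.1, Picard 2.12.0, SAMtools 1.10 and BWA 0.7.17-r1188, per the submitters' processing notes. Peak caller, treatment of PCR duplicates and any shift for Tn5: not given in the sources used here. Counts may therefore hold PCR copies.

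Groups came from the column names. Regions that passed edgeR's filterByExpr (77737) entered a single model of the 4 groups, fitted with edgeR 4.0.16 in R 4.3.3 (TMM scaling, quasi-likelihood test, Benjamini-Hochberg adjustment over all 77737; called at adjusted p under 0.05); errors of log2 differences are SE. Comparisons were MG with MDM, LL-MG with LL-MDM, LL-MDM with MDM, LL-MG with MG, LL-MG with MDM, LL-MDM with MG, the lineage-by-lipid interaction and any difference among the groups. Of the shared regions 31 failed the filter. CPM are per TMM-scaled library total. The exception is the medians of regions just outside the choice and of the shared regions beside them, which had no TMM scaling. Log2 CPM in the principal components, ranges and correlations used a prior count of 2. Regions carry the protein-coding gene they overlap, or the nearest within 50 kb; lists took regions within 5 kb of a gene. Gene starts, gene positions and promoter windows came from RefSeq tables (GRCm38.p6).

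The regions and the 27 gene lists were chosen with earlier results of these data known. Named regions were the 5 with the smallest p in each direction of a comparison with at least 2-fold change and no overlap, up to 3 each way for the interaction, the 6 evenest, the 6 most open per length, 5 graded each way, and list genes; a few of the regions so picked are not reported here. In counts simulated with the same spread in every group, the code recovered most of the larger changes put into MG against MDM. Spreads that differ between groups were not simulated. Alternatives were other scalings, no filter, libraries thinned to 1162969 counts, DESeq2 1.42.0, limma-voom (limma 3.58.1), groups by title, a replicate block and leaving out each library; leaving out the libraries MG 2 and MG 3, and setting regions with a gene start against those without, were added after seeing the data. Levels of a few CPM rest on few reads in the thinner libraries (LL-MDM 1, LL-MG), where counting error is large. No 2 libraries agreed within sampling noise throughout (chi-square per region 1.13 to 6.07 between libraries of a group). Deviations from the group means correlated at -0.09 to 0.14 (median 0.06) between libraries of different groups with the same number. Between libraries with other numbers they correlated at -0.17 to 0.12 (median -0.03). The ranges overlap, so these values do not settle whether library numbers pair the samples.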

Additional observations from a re-analysis of the deposited data

Results flagged for a closer look

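In 19 of the named regions the effect of lipid load differed between the lineages by the interaction term of the edgeR quasi-likelihood model (LL-MG minus MG, less LL-MDM minus MDM, log2 scale). It was positive for Vav2 (2.43), H2-Eb1 (2.25), Tmem131 (2.22), H2-Aa (2.119), Gpr4 (1.78), Cd74 (1.75), Mast4 (1.37), Nr1h3 (1.17) and Ifitm10 (0.87). In H2-Eb1, H2-Aa, Cd74, Tmem131 and Mast4 LL-MDM was lower than MDM with a call, and no call was made between LL-MG and MG. For Nr1h3, Ifitm10 and Gpr4, LL-MG was higher than MG with a call and no call was made between LL-MDM and MDM. It was negative for Pde4d (-3.55), Manba (-2.86), Gas6 (-2.06), Scn11a (-1.97), Lhfpl2 (-1.89), Dmxl2 (-1.66), Zdhhc14 (-1.54), Gramd1b (-1.53), Neurl3 (-0.75) and Serinc3 (-0.73). In Gas6, Scn11a, Lhfpl2, Zdhhc14 and Gramd1b the estimate with lipid load was higher in both lineages, by more in monocyte-derived macrophages. For microglia this gives the direction of the estimate and not a call, in the comparison whose count depended on MG 2 and MG 3.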

How the results depend on the processing

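Over the alternatives named under the processing, 76 named results gave 1748 values, of which 1657 kept direction and call, 77 kept the direction and lost the call and 14 changed direction. All 14 changes of direction came from grouping by title, as did 47 of the lost calls; 11 came from leaving out MG 2 and MG 3 and 13 from leaving out 1 library. Grouped by title, the log2 differences that turned were Lonrf2 0.23, Bik -0.027, Runx3 0.067, Myo16 0.10 and Ms4a7 0.43 in LL-MG against LL-MDM, Abca1 -0.27 in LL-MDM against MDM, and Nr1h3 -0.91, Gpr4 -0.19, Clptm1 0.036, Serinc3 0.69, Btbd9 0.19, Themis2 0.52, Actb 0.29 and Rpl3 0.030 in LL-MG against MG. By title the shared regions called were 3343 for any difference, 0 for MG against MDM (87 at an unadjusted p under 0.05, edgeR), 0 for LL-MG against LL-MDM (215), 3705 for LL-MDM against MDM, 1909 for LL-MG against MG, 3884 for LL-MG against MDM, 1860 for LL-MDM against MG and 0 for the interaction (104); another tool was not run by title. Thinned to the smallest library the counts, in the same order, were 10281, 6954, 3013, 3376, 1804, 8444, 3466 and 998. Leaving out 1 library gave 3138 to 6742 for LL-MG against LL-MDM, 4925 to 11364 for LL-MDM against MDM, 1342 to 10340 for LL-MG against MG, 4339 to 10997 for LL-MDM against MG and 1738 to 7064 for the interaction. Without MG 2 and MG 3, where the lone MG library is assumed to vary like the others, LL-MG against MG gave 10, LL-MDM against MG 4113 and the interaction 2268; DESeq2 gave 2388 for the interaction. The replicate block, on library numbers that are not known to pair the samples, gave 14588 for MG against MDM and 4341 for LL-MG against MG. Scaling by total counts gave 4650 higher and 3226 lower in LL-MDM against MG, where the main scaling gave 3791 and 4066, and scaling on the shared regions gave 7810 and 7441 in LL-MG against MDM, where the main gave 8982 and 5608; for the interaction RLE gave 1581 and 1727 and total counts 1657 and 1846. The causes were not tested. Depth limits the thinner libraries: counts between 1162969 and 18938222 leave regions near 1 CPM with few reads in LL-MDM and LL-MG.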
